A study of Mus musculus with 8 samples.

Results

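Prostaglandins and leukotrienes are short-lived lipid messengers made from arachidonic acid, a fatty acid that phospholipase A2 enzymes cut out of membrane lipids. The cyclooxygenases Ptgs1 and Ptgs2 turn it into an intermediate that terminal synthases convert further, Hpgds and Ptgds into prostaglandin D2 and Ptges into prostaglandin E2, and Hpgd inactivates the products. Alox5, helped by its membrane partner Alox5ap, starts the leukotriene branch, from which Lta4h makes leukotriene B4 and Ltc4s makes leukotriene C4, the first of the cysteinyl leukotrienes. Prostaglandin D2 and cysteinyl leukotrienes are known as products of mast cells in allergy, and in the mouse gut tuft cells are known to make both kinds of lipid.

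These 10 enzyme genes were taken as a set, and each array probe set annotated to exactly 1 of them was used. The set had 16 probe sets out of the 45101 on the array and covered 9 genes of the 18193 named by a probe set of their own. The table used here lists no probe set for Ptgs1, which was not analysed here. The genes were chosen by the measured difference between ovalbumin and control intensities over these 8 arrays, whose results were already known, so every value of that contrast for the 9 genes is a description and carries no test. All 9 passed the filter on intensity with at least 1 probe set.

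Total RNA came from Peyer's patches, lymphoid organs set into the gut wall, of 8 mice of the inbred strain C3H/HeJ, whose Tlr4, a sensor of bacterial endotoxin, does not signal. From 6 weeks of age, mice of both sexes were gavaged for 28 days, 6 of them with ovalbumin (OVA), the main protein of egg white and a common food allergen, at 40 mg/kg a day, and 2 with saline. The arrays were female control 7, male control 8, female OVA 2 and 12, and male OVA 1, 5, 8 and 13, numbered as in the labels. The labels call the OVA mice allergic, and no measure of allergy was used here. The labels title each sample as a mouse with a sex, a treatment and a number, and say nothing more of how it was taken, so p-values measure only the spread between these samples.

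The 2 to 98% trimmed mean intensity of an array lay between 65.1 and 68.2, and 8 arrays, only 2 of them controls, limit the precision of every value. The labels give the tissue as Peyer's patches while their extraction text names a brain region. Of 14 neuron and glia genes, 3 passed the intensity filter (Syt1, Aqp4 and Mbp), against 11 of 12 B cell genes and all 12 epithelial genes. The arrays of female OVA 12 and male OVA 8 stood apart in their B cell marker score, a mean log2 intensity. It was 8.29 and 8.28, against 7.29 and 7.30 in the controls and 7.31 to 7.64 in the other OVA mice. The 3′ to 5′ ratio of beta-actin, a sign of RNA integrity, was 1.43 and 1.54 in controls. In OVA mice it was 1.29 to 1.37 except for male OVA 8, at 1.58. In bulk tissue, fewer cells of a type and less RNA per cell cannot be told apart.

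Alox5 and Lta4h were the members whose arrays lay lower in every OVA mouse than in both controls. The 250 bases before their annotated starts are shown because the 2 genes lay on the same side, from RefSeq on GRCm38.p6, with a GC box (GGGCGG on either strand) in capitals. The window of Alox5, a gene on the minus strand, is chr6:116461179-116461428, and that of Lta4h, on the plus strand, is chr10:93453146-93453395.
Alox5: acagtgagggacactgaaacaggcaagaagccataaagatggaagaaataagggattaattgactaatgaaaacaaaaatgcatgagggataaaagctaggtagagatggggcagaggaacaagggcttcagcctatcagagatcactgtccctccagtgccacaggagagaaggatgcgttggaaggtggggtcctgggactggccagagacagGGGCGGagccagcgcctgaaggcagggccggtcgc
Lta4h: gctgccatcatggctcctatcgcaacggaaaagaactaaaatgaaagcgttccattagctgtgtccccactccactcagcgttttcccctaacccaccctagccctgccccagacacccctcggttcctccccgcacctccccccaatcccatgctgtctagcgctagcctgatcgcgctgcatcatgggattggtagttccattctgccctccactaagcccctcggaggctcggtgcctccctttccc
The Alox5 window held 1 GC box and the Lta4h window none, while 32.7% of 32851 such windows held at least 1. Neither window held a TATA box (TATAAA, in 12.4% of windows) or the GATA motif AGATAA (in 9.99%), searched on both strands. The windows of Hpgds, Ptgds and Ptges lie inside the annotated span of the same gene and are not printed.

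Among the 9 measured genes, the OVA arrays lay above both controls for 3 (Hpgds, Ptges and Ptgds), below both for 2 (Alox5 and Lta4h) and overlapped the controls for 4 (Ptgs2, Hpgd, Alox5ap and Ltc4s). Over all 11988 genes tested, the OVA arrays lay above both controls for 7.99% and below both for 4.65%. The members' median difference of OVA minus control was 0.08 on the log2 scale, with 5 genes higher and 4 lower, against a median of 0.02 over all genes. Neither branch lay on 1 side: of the prostaglandin genes Hpgds, Ptgds and Ptges were higher and Ptgs2 and Hpgd lower, and of the leukotriene genes Alox5ap and Ltc4s were higher and Alox5 and Lta4h lower.

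**Figure D1:**
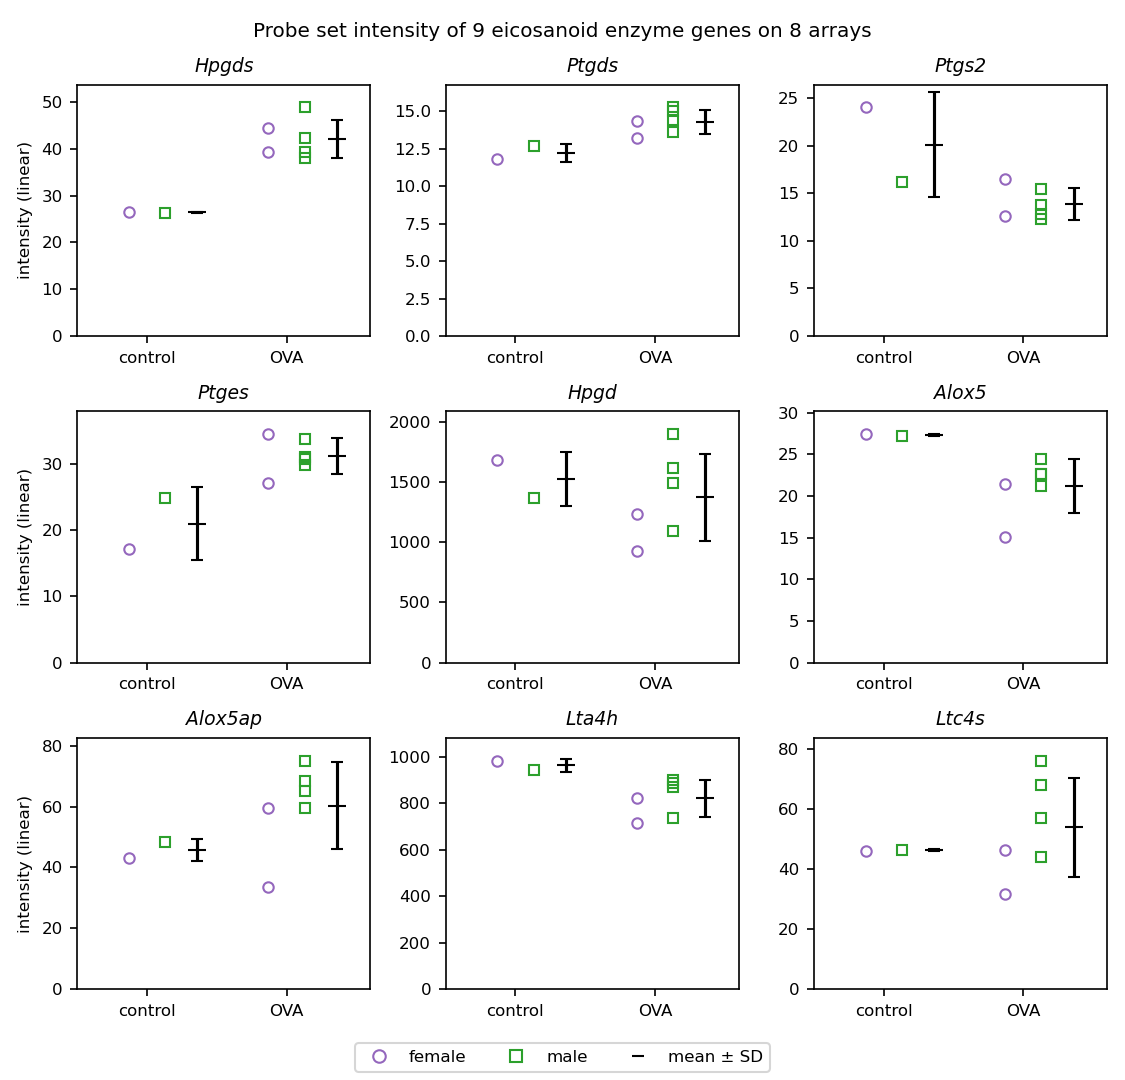
Deposited intensity (linear scale, from 0) of the brightest probe set of each of the 9 genes in control (n = 2) and OVA mice (n = 6), with females as circles, males as squares, and the mean ± SD in black. The OVA arrays of Hpgds, Ptges and Ptgds lie above both controls, and those of Alox5 and Lta4h below.

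Hpgds, the haematopoietic prostaglandin D synthase of mast cells, T helper 2 cells and antigen-presenting cells, showed the widest gap. Its intensity was 26.5 in the female control and 26.3 in the male control. It was 39.4 and 44.5 in female OVA 2 and 12, and 42.2, 38.1, 48.9 and 39.4 in male OVA 1, 5, 8 and 13. The controls were almost equal and every OVA mouse of either sex was well above them. Its mean was 26.4 ± 0.153 over controls (SD, n = 2) and 42.1 ± 4.04 over OVA mice (SD, n = 6). The log2 difference was 0.58 ± 0.11 (SE), or 1.5-fold. The difference was 0.57 within females and 0.59 within males, each against a lone control, and 0.51 without female OVA 12 and male OVA 8.

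Ptgds, the lipocalin-type prostaglandin D synthase known from brain membranes, was dim and close to the filter at an intensity of 11.9. It read 11.8 and 12.7 in the female and male control, 13.2 and 14.3 in female OVA mice, and 13.6, 14.4, 15.2 and 15.0 in male OVA 1, 5, 8 and 13. The groups did not overlap, but the step between the male control and the lowest OVA mouse was small. On the log2 scale the difference was 0.15 ± 0.09 (SE). A second probe set, below the filter, read 5.53 and 5.92 in controls and 6.25 to 8.19 in OVA mice, again without overlap.

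Ptges, the inducible microsomal prostaglandin E synthase, had 3 probe sets that did not give the same picture. The brightest by mean log2 value read 17.1 in the female control and 24.9 in the male control. It read 27.1 and 34.5 in female OVA 2 and 12, and 30.7, 29.8, 33.8 and 31.1 in male OVA 1, 5, 8 and 13. All OVA arrays were above both controls, and the controls differed from each other by more than the OVA arrays of males did. The log2 difference was 0.47 ± 0.13 (SE), 0.69 within females and 0.28 within males. The other 2 probe sets overlapped between groups, with differences of 0.05 ± 0.16 (SE) and -0.03 ± 0.13 (SE). The mean of the 3 probe sets gave 0.16.

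**Figure D2:**
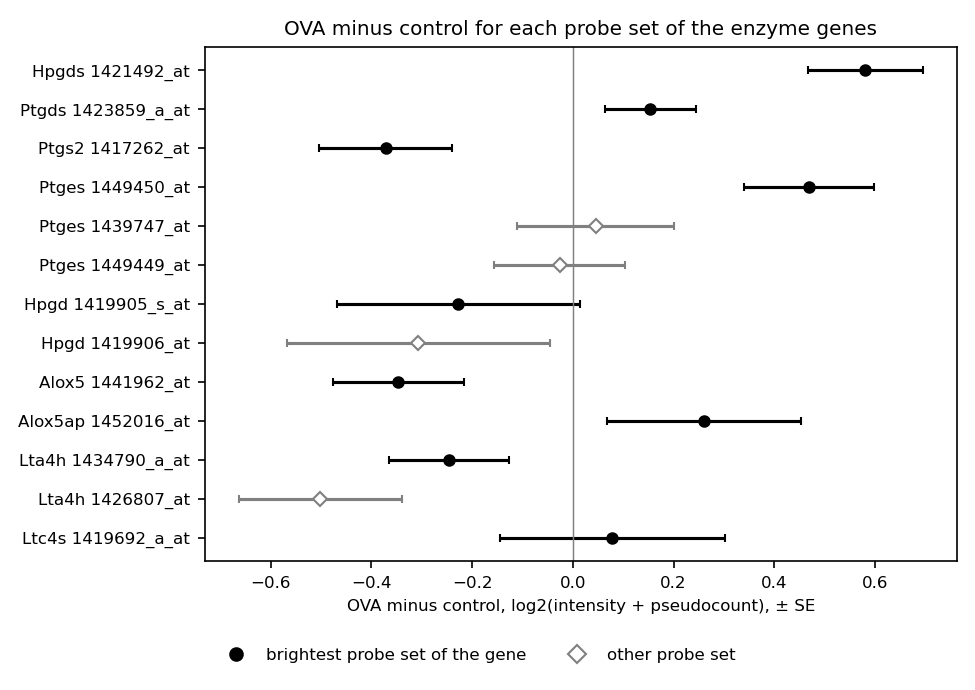
OVA minus control on the log2 scale, with SE, for the 13 member probe sets past the intensity filter, from 8 arrays with sex as a term. Black circles mark the brightest probe set of a gene and open diamonds the others. Probe sets of Ptges differ (0.47, 0.05 and -0.03), while both of Hpgd and both of Lta4h lie below 0.

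Ptgs2, the inducible cyclooxygenase, overlapped between groups. It read 24.0 (female control) and 16.2 (male control), then 16.5 and 12.6 in female OVA 2 and 12, and 12.3, 13.7, 12.8 and 15.4 in male OVA 1, 5, 8 and 13. Only female OVA 2 reached above the male control. The log2 difference of -0.37 ± 0.13 (SE) was -0.58 within females and -0.20 within males, so it was larger against the female control. A second probe set stayed below the filter, at 2.59 to 3.72.

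Hpgd, the dehydrogenase that inactivates prostaglandins and is abundant in gut epithelium, overlapped between groups. Its brighter probe set read 1679 in the control female, against 1230 and 922.2 in female OVA 2 and 12. In males it read 1367 in the control and 1487, 1618, 1091 and 1897 in OVA 1, 5, 8 and 13. Both female OVA mice were below their control, and 3 of 4 male OVA mice above theirs. The log2 difference over both sexes was -0.23 ± 0.24 (SE), made of -0.65 within females and 0.13 within males, and it was close to 0 (-0.01) without female OVA 12 and male OVA 8. The difference between the sexes in this effect did not pass its test, given below with the others. The second probe set gave -0.31 ± 0.26 (SE).

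In the leukotriene branch, Alox5, the 5-lipoxygenase of myeloid cells and mast cells, read 27.4 in the female control and 27.2 in the male control. It read 21.4 and 15.0 in female OVA 2 and 12, and 24.4, 22.6, 21.2 and 22.6 in male OVA 1, 5, 8 and 13. The controls were nearly equal and every OVA array was lower, female OVA 12 by the widest margin. The control mean was 27.3 ± 0.142 (SD, n = 2) and the OVA mean 21.2 ± 3.25 (SD, n = 6). The log2 difference was -0.35 ± 0.13 (SE), -0.25 without female OVA 12, and -0.50 within females and -0.22 within males.

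Alox5ap, the protein that presents arachidonic acid to Alox5, overlapped between groups. Its intensity was 43.1 and 48.3 in the female and male control, 33.7 and 59.6 in female OVA 2 and 12, and 65.1, 68.4, 75.1 and 59.6 in male OVA 1, 5, 8 and 13. In 5 of 6 OVA mice it was above both controls, and in female OVA 2 below both. The log2 difference was 0.26 ± 0.19 (SE) and 0.43 without female OVA 2. It was 0.05 within females and 0.43 within males, 0.14 without female OVA 12, and 0.10 without female OVA 12 and male OVA 8.

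Lta4h, the hydrolase that makes leukotriene B4, read 983.8 and 942.3 in the female and male control. It read 822.7 and 716.4 in female OVA 2 and 12, and 870.9, 902.3, 734.8 and 886.6 in male OVA 1, 5, 8 and 13. Every OVA array was below both controls, with the lowest values in female OVA 12 and male OVA 8. The log2 difference was -0.25 ± 0.12 (SE), -0.36 within females and -0.15 within males, and -0.15 without those 2 arrays. A dimmer probe set, which read 23.8 and 37.3 in controls and 16.8 to 24.7 in OVA mice, gave -0.50 ± 0.16 (SE).

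Ltc4s, the synthase of leukotriene C4, overlapped. It read 46.1 and 46.5 in the female and male control, 31.7 and 46.5 in female OVA 2 and 12, and 76.2, 68.0, 44.1 and 57.2 in male OVA 1, 5, 8 and 13. The controls were nearly equal while OVA mice lay on both sides of them. Its log2 difference was 0.08 ± 0.22 (SE), from -0.24 within females to 0.34 within males.

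The sexes were compared next, a contrast that had no part in choosing the genes. With limma, 0 of the 9 genes passed after Benjamini-Hochberg adjustment over 22518 probe sets, where 12 of all probe sets (0.0533%) did. By the brightest probe set of each gene, 1 member had an unadjusted p under 0.05, Alox5ap, against 5.41% of probe sets. The dimmest probe set of Ptges, outside that count, was -0.45 ± 0.12 (SE) in females relative to males. Its limma p was 0.00405 before and 0.901 after adjustment. Alox5ap was -0.42 ± 0.17 (SE) in females relative to males (adjusted p = 0.901), and Ltc4s -0.43 ± 0.20 (SE, adjusted p = 0.901). In OVA mice the mean intensity of Alox5ap was 46.6 in the 2 females and 67.0 in the 4 males, and that of Ltc4s 39.1 and 61.4. Female OVA 2 had the lowest value of both, and without it the differences were -0.15 for Alox5ap and -0.22 for Ltc4s. Hpgds was 0.001 ± 0.10 (SE) apart between the sexes. By their brightest probe sets, the remaining 6 genes ran from -0.27 (Hpgd) to 0.17 (Ptgs2).

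The OVA effect of females minus that of males was also tested with limma, with each lone control assumed to vary like the other arrays. Of the 9 genes, 0 passed (smallest adjusted p = 0.689) and 0 had an unadjusted p under 0.05, where 0% of probe sets passed and 8.2% had an unadjusted p under 0.05. The widest difference was that of Hpgd, at -0.78 ± 0.43 (SE). For Hpgds it was -0.01 ± 0.24 (SE). These counts and values are of the brightest probe set of each gene. The dimmest probe set of Ptges, not among them, was at 0.55 ± 0.18 (SE).

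Genes before and after these enzymes in the pathway were taken by role, 59 in 6 lists. Of these 6 had no probe set of their own, 15 were below the filter and 38 were tested. For OVA against control 0 of 38 passed with limma (smallest adjusted p = 0.413), as did 0% of all probe sets in either direction. At an unadjusted p under 0.05 there was 1 gene on the higher side, Pla2g2d, and 0 on the lower, against 6.88% and 4.33% of probe sets. Of the 38, 20 were higher and 18 lower, with a median log2 difference of 0.01.

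Going by the brightest probe set of each gene, Pla2g2d was the 1 gene of the 38 whose OVA arrays did not overlap the controls, all being above. Over all 11988 genes tested, 7.99% lay above both controls and 4.65% below. Pla2g2d is a secreted phospholipase A2 known from dendritic cells of lymphoid tissue. It read 115.1 and 73.3 in the female and male control, 130.3 and 219.8 in female OVA 2 and 12, and 169.8, 130.5, 283.7 and 130.7 in male OVA 1, 5, 8 and 13. The highest values were those of female OVA 12 and male OVA 8. Its log2 difference was 0.88 ± 0.32 (SE, adjusted p = 0.413), 0.62 without those 2 arrays and 0.54 without the male control. Its second probe set overlapped, at 102.9 and 71.5 in controls and 98.6 to 218.1 in OVA mice. A dimmer probe set of Pla2g6 lay below both controls, at 14.9 and 13.0 in controls and 10.7 to 12.8 in OVA mice, while its brightest overlapped. Among the other phospholipases, 5 were lower and 4 higher, with Pla2g2a at -0.19 ± 0.24 (SE) and Plaat3 at -0.18 ± 0.13 (SE). The other prostanoid synthases ran from -0.21 (Prxl2b) to 0.09 (Ptgis), with Cbr1, a carbonyl reductase that can act on prostaglandin E2, at -0.16 ± 0.29 (SE).

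In transport and breakdown, Slco2a1, the transporter that takes prostaglandins up for inactivation, was at -0.31 ± 0.16 (SE), Abcc1, an exporter of leukotriene C4, at 0.36 ± 0.17 (SE) and Ptgr1, which oxidises leukotriene B4 and reduces keto prostaglandins, at -0.06 ± 0.24 (SE). In the list of other lipoxygenases and leukotriene processing, Mgst2 and Mgst3 were at -0.09 and -0.11, and Cyp4f18, which hydroxylates leukotriene B4 in mouse neutrophils, at 0.36 ± 0.17 (SE). The adjusted p of these 6 genes was 0.456 to 0.938. Leaving out the female control turned the direction of Cbr1 (0.34), Ptgr1 (0.32), Mgst2 (0.08) and Mgst3 (0.15).

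The receptors of prostaglandin D2 were dim. Ptgdr, the first of them, was at -0.12 ± 0.11 (SE), and Ptgdr2, carried by T helper 2 cells and eosinophils, stayed below the filter with a highest intensity of 7.81. Of the prostaglandin E2 receptors, Ptger4 was at -0.21 ± 0.13 (SE) and Ptger2 at 0.39 ± 0.21 (SE). The Ptger2 value followed the female control, at 10.4 against 28.0 in the male control and 20.1 to 35.3 in OVA mice, and was -0.0033 without it. The prostacyclin receptor Ptgir was at 0.17 ± 0.18 (SE) and the thromboxane receptor Tbxa2r at 0.01 ± 0.11 (SE). Among leukotriene receptors, Cysltr1 was at 0.14 ± 0.14 (SE), the leukotriene B4 receptor Ltb4r1 at 0.13 ± 0.14 (SE) and Fpr2, a receptor of lipoxins and formyl peptides, at 0.42 ± 0.23 (SE). The adjusted p of the 8 receptors past the filter was 0.498 to 0.972, and Ptger1, Ptger3, Ptgfr, Cysltr2, Gpr17 and Oxgr1 were below it.

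**Figure D3:**
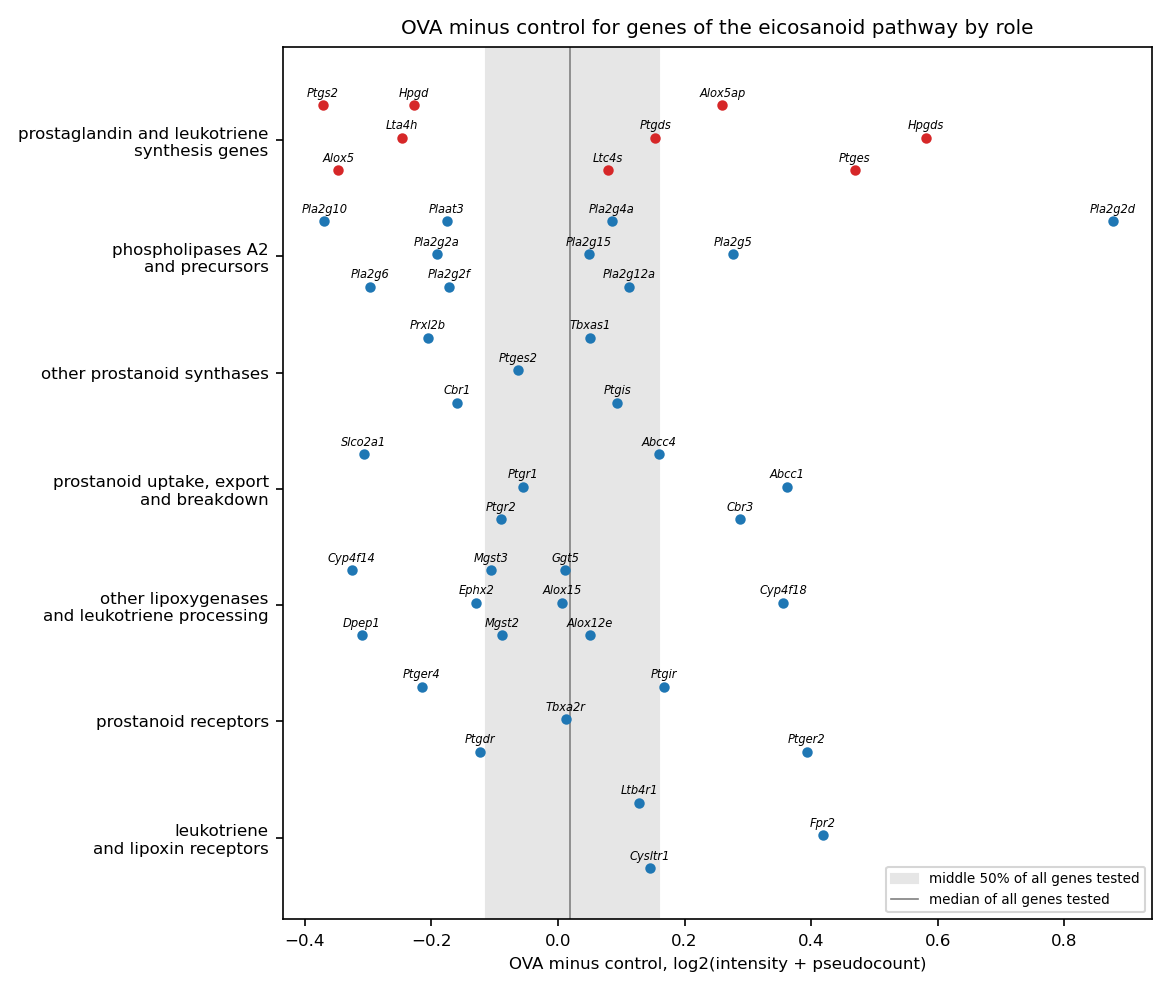
OVA minus control on the log2 scale for the 9 enzyme genes (red) and the 38 other genes of the pathway (blue) by role, 1 point per gene; vertical offsets only separate labels. The grey band is the middle 50% of the 11988 genes tested and the line their median of 0.02. Hpgds, Ptges and Pla2g2d lie farthest to the right.

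The cell types known to hold these enzymes were followed by their marker genes. Each summed intensity took the brightest probe set of every listed gene that had one, also where it was below the filter. Tuft cell markers had a summed intensity of 154.0 in both controls and 155.3 to 235.4 in OVA mice, led by the brightest probe set of Dclk1, at 40.7 and 37.7 in controls and 51.6 to 103.0 in OVA mice. Of the 12 tuft genes 4 passed the filter, and besides Dclk1 these were Avil, Gfi1b and Plcb2. Those overlapped between groups, with log2 differences of 0.14, 0.08 and -0.02. Below the filter, Pou2f3 read 5.95 and 4.75 in controls and 3.63 to 4.30 in OVA mice, all below both controls. Trpm5 overlapped, at 16.5 and 11.2 in controls and 8.95 to 13.4 in OVA mice, and Il25 was at most 4.74. By their brightest probe sets Sh2d6, Chat and Gng13 overlapped too. Gng13 read 9.94 and 11.7 in controls and 10.3 to 13.6 in OVA mice, while its dimmer probe set lay below both controls. Mast cell markers, 5 of 11 past the filter, summed to 189.2 and 200.8 in controls and 150.4 to 351.4 in OVA mice, highest in male OVA 13 and lowest in male OVA 8. Those past the filter were Kit, Cpa3, Mcpt1, Mcpt2 and Gata2, all overlapping between groups, with log2 differences from -0.09 (Kit) to 0.40 (Mcpt1). Mcpt2 read 52.5 and 64.3 in controls and 26.6 to 149.4 in OVA mice, and Mcpt1 26.6 and 26.1 against 14.4 to 75.1. Cpa3 read 9.75 and 12.4 in controls and 11.8 to 20.8 in OVA mice. Below the filter, Fcer1a, Ms4a2 and Cma1 were at most 8.86, 7.19 and 6.73, and Mcpt4, Tpsb2 and Hdc at most 15.1, 9.25 and 12.8.

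In what follows the counts are of genes past the filter, while the sums again include genes below it. Macrophage and dendritic cell markers (12 of 14) summed to 6446 and 7018 in controls and 6546 to 8623 in OVA mice, and B cell markers (11 of 12) to 3107 and 3351 against 3115 to 6536. T cell markers (9 of 12) gave 675.6 and 788.4 against 714.4 to 1093, and epithelial markers (12 of 12) 22327 and 23614 against 14933 to 23161. Markers of smooth muscle and fibroblasts (12 of 12) gave 8272 and 8677 against 5891 to 9295, and those of T helper 2 and group 2 innate lymphoid cells (3 of 9) 104.6 and 110.5 against 95.1 to 117.7. Granulocyte markers passed in 1 of 11 and platelet markers in 4 of 6, with sums of 60.4 and 76.8 against 64.4 to 101.4, and of 183.3 and 222.4 against 116.1 to 217.8. The part of these cell types in the members' values was not tested.

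The 9 genes were set against the mast, tuft, macrophage and dendritic, B cell and epithelial scores, 45 relations in all. Tests were run within the 6 OVA arrays, since the step from control to OVA chose the genes, by exact permutation over 720 pairings. With this exact permutation test 0 of 45 passed after adjustment (smallest adjusted p = 0.156 for Pearson's r and 0.333 for Spearman's rho), and 6 had an unadjusted p under 0.05 for each measure. By chance about 1 in 20 would. The relations share the same 6 arrays and are not independent, so 6 of 45 was not read as an excess. Each value of r is followed by that without the 2 OVA arrays farthest from the median score, which for B cells are female OVA 12 and male OVA 8.

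For Ptges and the macrophage and dendritic score r was 0.95 (p = 0.00417 by exact permutation, 0.156 after adjustment) and 0.91 without the extreme 2, with a rho of 0.94 (p = 0.0167 by the same exact test, 0.333 after adjustment). Ptgs2 ran against that score, with r = -0.83 (p = 0.0319 by exact permutation, 0.25 after adjustment) and -0.47 without the extreme 2. Its rho was -0.77 (p = 0.103 by the same exact test, 0.582 after adjustment). Alox5ap and the tuft cell score gave r = 0.72 (p = 0.122 by exact permutation, 0.365 after adjustment) and 0.52 without the extreme 2. Their rho was 0.90 (p = 0.0278 by the same exact test, 0.333 after adjustment). Hpgd ran against the B cell score, with r = -0.91 (p = 0.00694 by exact permutation, 0.156 after adjustment), -0.82 without the extreme 2, and rho = -0.94 (p = 0.0167 by the same exact test, 0.333 after adjustment). Lta4h ran against it too, with r = -0.96 (p = 0.0125 by exact permutation, 0.188 after adjustment) and rho = -0.89 (p = 0.0333 by the same exact test, 0.333 after adjustment). That r was -0.54 without female OVA 12 and male OVA 8, so it rested in part on them.

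Hpgds and the B cell score gave r = 0.90 (p = 0.0167 by exact permutation, 0.188 after adjustment), 0.60 without those 2 arrays, and rho = 0.84 (p = 0.0444 by the same exact test, 0.333 after adjustment). Against the epithelial score Hpgds had r = -0.85 (p = 0.0333 by exact permutation, 0.25 after adjustment), -0.61 without the extreme 2, and rho = -0.64 (p = 0.194 by the same exact test, 0.582 after adjustment). Hpgds and the tuft cell score gave r = 0.76 (p = 0.0806 by exact permutation, 0.365 after adjustment), 0.19 without the extreme 2, and rho = 0.41 (p = 0.433 by the same exact test, 0.722 after adjustment). For Hpgds and the mast cell score r was -0.55 (p = 0.267 by exact permutation, 0.48 after adjustment), 0.03 without the extreme 2, and rho -0.32 (p = 0.556 by the same exact test, 0.725 after adjustment). For Hpgds and the macrophage and dendritic score r was 0.67 (p = 0.136 by exact permutation, 0.365 after adjustment) and 0.95 without the extreme 2. The rho of that pair was 0.84 (p = 0.0444 by the same exact test, 0.333 after adjustment). None of these relations held after adjustment.

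**Figure D4:**
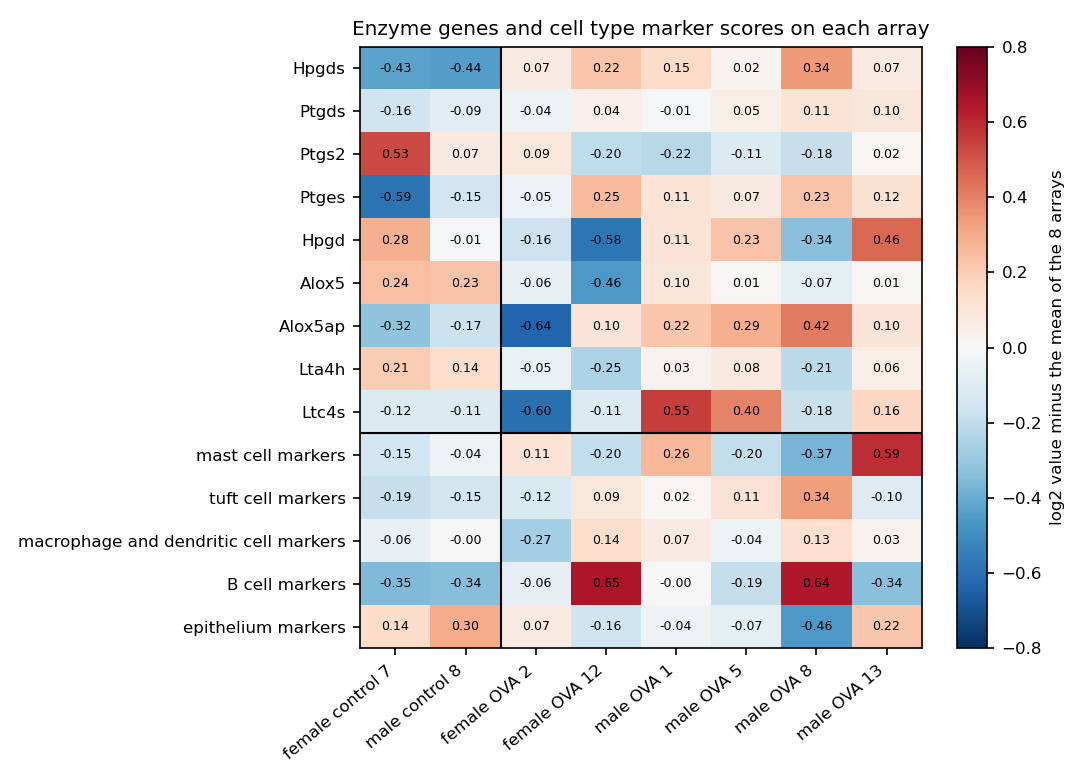
Log2 value of the 9 enzyme genes (above the line) and of 5 cell type marker scores (below it) on each array, minus the mean of the 8 arrays; controls stand left of the vertical line and the number in a cell is its value. Hpgds is at -0.43 and -0.44 in the controls and from 0.02 to 0.34 in OVA mice, and the B cell score is highest in female OVA 12 (0.65) and male OVA 8 (0.64).

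Among themselves, and as a description across the 6 OVA arrays, Hpgd and Lta4h ran most closely together (r = 0.94), and Alox5 had r = 0.78 with each of them. Hpgds and Ptges had r = 0.77, and Hpgds ran against Lta4h with r = -0.83. Alox5 and its partner Alox5ap had r = 0.07.

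Across the other 11979 genes, those with the highest Pearson r over the 8 arrays were named for each enzyme, as a description. For Hpgds these were Dimt1, Aarsd1 and Cfap298 (r = 0.99, 0.98 and 0.98 over 8 arrays, and 0.93, 0.94 and 0.84 over the 6 OVA arrays). For Lta4h they were Fam8a1, Tbx3 and Itch, for Hpgd Plpp3, Cpeb3 and Gal3st2, and for Alox5 Epha2, Nfxl1 and Mbd6. Alox5ap was most like Dock8, Plekho2 and Ociad1, and Ltc4s most like Kmt2c, Psenen and Fcgr3, an Fc receptor chain of myeloid cells. The nearest genes of Ptges were Tceal1, 1700052K11Rik and Pelp1, those of Ptgds Crym, C030034I22Rik and Golm2, and those of Ptgs2 Afap1l2, Msrb3 and Alas1. The r values of all these pairs were 0.92 to 0.99 over 8 arrays, which hold the step from control to OVA that chose the enzymes. Over the 6 OVA arrays they were 0.63 to 0.99, lowest for the 3 genes named for Ptgs2 (0.63, 0.68 and 0.70).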

How the data were processed

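Biotin-labelled RNA of Peyer's patches was hybridised to single-colour Affymetrix arrays, 1 per mouse. The authors deposited 1 table of intensity values, linear and already normalized. The submitters' processing notes name MAS5, with neither version nor scaling in the sources used here. Intensities ran from 1.86 to 14749, and 23229 of 45101 probe sets (51.5%) held an equal value on 2 or more arrays. They were used as log2(value + 4.88), with the 25th percentile of the table as the pseudocount. After removal of 64 AFFX controls, the 22518 probe sets above the median of mean log2 values, or an intensity of 11.9, entered the tests. Each gene was followed by its brightest probe set among those naming that gene alone. GEO's platform annotation names exactly 1 gene for 34958 probe sets, while 932 have several and 9211 have no gene.

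limma 3.58.1 (R 4.3.3) fitted treatment and sex over the 8 arrays. Tests were two-sided, and p-values were adjusted by Benjamini-Hochberg over the tested probe sets, with a threshold of 0.05. The sex difference in the OVA effect came from a fit of group means. Correlations and figures were made in Python 3.11.15. Correlations with marker scores had been planned over all 8 arrays and are given within the 6 OVA arrays. Genes named outside the members were the 2 brightest per role list, the receptors past the filter and the 5 of smallest p, and the 3 genes of highest r for each member. The members and lists were chosen with earlier results of these data known. The fits were tested on simulated data. Alternatives were another pseudocount, scaling, filter, variance model, array weights, covariates, the mean of a gene's probe sets, each sex alone and leaving out arrays. Leaving out female OVA 12 and male OVA 8 was chosen after seeing the data.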

Additional observations from a re-analysis of the deposited data

Results flagged for a closer look

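In groups of 4 to 10 arrays, a lone array was looked for by the gap to its neighbour as a share of the group's range, in 56 groups of 28 genes. It was found in 4, where chance gives about 1 in 20. Alox5 in female OVA 12 was the lowest of 6 OVA arrays with a gap of 0.698 of the range, and Alox5ap in female OVA 2 the lowest with 0.704. Ptgdr in male OVA 13 was the lowest of 6 with 0.642, and Prxl2b in male OVA 8 the lowest of 4 male OVA arrays with 0.883.

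In 2 receptor genes both female OVA mice moved one way from the female control and all 4 male OVA mice the other way from the male control. The OVA effect in females minus that in males was -0.58 on the log2 scale for Ptgir and 0.38 for Tbxa2r. Neither passed the limma test of that difference, and each direction rests on 1 control per sex.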

How the results depend on the processing

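No paired analysis was possible because controls and OVA mice share only the number 8. The counts of 3 members above and 2 below the controls became 0 and 1 with a filter at the 75th percentile, which left only Hpgd and Lta4h measured. Within females alone 4 members lay below the lone control. Without 1 array the counts ran from 3 to 4 above and from 2 to 3 below (4 and 3 without female OVA 2), and they were 3 and 2 without female OVA 12 and male OVA 8. The share over all genes was not taken for any of these alternative counts, which are not read as results about the members. The counts of 0 for the other pathway genes, the sexes and the sex difference were 0 under every alternative run. The smallest adjusted p of the other pathway genes ran from 0.293 to 0.714, and that of the members between the sexes was lowest, at 0.165, with array weights. The fit of the sex difference could not be made without a lone control. The female against male count over all probe sets was 12, but 4 with the stricter filter and 5 with gene means. Hpgds was 0.49 to 0.65 higher in OVA mice under every alternative run in which it was measured. Ptges was at 0.16 with gene means. The Hpgds sex difference was -0.022 with array weights, -0.076 with no covariate, -0.0023 in OVA arrays alone, -0.0049 without female OVA 12 and male OVA 8, and -0.046 to 0.051 without 1 array. Tbxa2r was -0.0080 with quantile normalization and Ptgr1 0.059 with array weights. Without female OVA 12 and male OVA 8, Cbr1 was 0.082, Prxl2b 0.023, Ptgr1 0.17, Mgst3 0.035, Mgst2 0.026 and Tbxa2r -0.030. Leaving out 1 array gave -0.76 to 0.34 for Cbr1, -0.50 to 0.32 for Ptgr1, -0.42 to 0.15 for Mgst3, -0.29 to 0.078 for Mgst2, -0.16 to 0.22 for Tbxa2r, -0.0033 to 0.87 for Ptger2, -0.026 to 0.26 for Ltb4r1, -0.24 to 0.021 for Ptgdr and -0.15 to 0.43 for Ptgir. The cause of these changes was not tested.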
